A study of Mus musculus with 12 samples.

Results

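Phagocytes recognise a dying cell by the phosphatidylserine it exposes, either with receptors that bind this lipid directly or through soluble proteins that bridge the lipid to a receptor. The data described here are the array levels of 10 genes of that system in mouse colonic phagocytes: the receptors Timd4, Mertk, Axl and Tyro3, the bridging proteins Gas6, Pros1 and Mfge8, and the integrin subunits Itgav, Itgb3 and Itgb5. They were chosen by name, as receptors and bridging factors for apoptotic cells, from 19938 genes that have a row with a single gene symbol, and each of the 10 had 1 such row. Tim-4, the product of Timd4, binds phosphatidylserine directly. Mertk, Axl and Tyro3 are the TAM receptor tyrosine kinases, which bind it through Gas6 or, for some of them, protein S (Pros1). Mfge8 links phosphatidylserine to integrins made of the αv subunit with β3 or β5. Intestinal macrophages take up dying epithelial cells without provoking inflammation, and uptake through these receptors is known to dampen cytokine production in macrophages.

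Sorting of freshly digested cecum gave resident macrophages (RM), which were positive for the leukocyte marker CD45, for MHCII and CD11c, and for CD11b and F4/80 but lacked Ly6c, and CD11b+ DC, which passed the same gates except that they were F4/80-. Each was taken from Runx3Δ mice, in which CD11c-Cre deletes a floxed Runx3 in cells that express CD11c, and from WT littermates. Runx3 is a transcription factor of the RUNX family, and the study asked what its loss does to the transcriptome of these cells. The 12 arrays comprised 4 Runx3Δ RM, 3 WT RM, 3 Runx3Δ CD11b+ DC and 2 WT CD11b+ DC samples, and each sample was a pool of 3 to 4 C57Bl/6 mice of both sexes, aged 6 to 8 weeks. The genotype label reads Runx3 -/-, although the deletion is limited to cells with CD11c-Cre activity.

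Levels are the deposited log2 intensities, so a difference of 1 is a doubling. Each difference below is a mean difference on that scale with its standard error (SE), from a single limma fit of the 4 groups over 35556 rows, and a gene is said to differ when its p-value, corrected by the Benjamini-Hochberg procedure across the whole table, is under 0.05. Precision is limited by how few arrays there are, and the p-values measure the spread between these pooled samples. Because these are bulk samples, fewer cells of a type and less RNA per cell cannot be told apart.

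The sorted populations carried the markers of their labels. Of 14 measured markers of resident macrophages, 12 were higher in Runx3Δ RM than in Runx3Δ CD11b+ DC and 11 were higher in WT RM than in WT CD11b+ DC, with none lower. Of 14 markers of conventional DC, 11 and 12 were lower in RM in the same comparisons, among them Flt3 and Zbtb46. Adgre1, which encodes the F4/80 used to sort the cells, averaged 11.71 in Runx3Δ RM and 11.86 in WT RM, against 9.41 in Runx3Δ and 9.73 in WT CD11b+ DC. The Runx3 row averaged 9.94 in Runx3Δ and 9.69 in WT RM, and 10.04 in Runx3Δ and 10.05 in WT CD11b+ DC. Whether its probes lie in the deleted part of the gene is not given in the sources used here, so this level checks nothing about the deletion. B and plasma cell markers stood higher in RM: 5 of 9 passed the test in Runx3Δ and 2 of 9, Cd22 and Cd79b, in WT, and their summed intensities ranged from 4703 to 6795 in Runx3Δ RM and 3542 to 8061 in WT RM, against 2282 to 3596 in Runx3Δ and 1967 to 3099 in WT CD11b+ DC. Their part in the results below was not tested.

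The bases before the transcription start are shown for 4 members, because in these windows a script found letters bound by RUNX factors, by PU.1 or by MAF, factors that act in macrophages and DC. RefSeq promoter windows of build GRCm38.p6 were available for 9 of the 10 members, and the 250 bases before the start were searched on both strands for TGTGGT (RUNX), GAGGAAG (PU.1) and TGCTGAC (MAF). Capitals mark the match, and each sequence reads 5′ to 3′ toward the start.
Mfge8 (chr7:79149061-79149310, minus strand): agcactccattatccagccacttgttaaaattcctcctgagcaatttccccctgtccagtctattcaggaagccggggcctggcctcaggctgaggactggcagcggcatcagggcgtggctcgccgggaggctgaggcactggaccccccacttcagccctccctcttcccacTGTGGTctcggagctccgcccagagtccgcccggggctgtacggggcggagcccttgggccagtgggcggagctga
Timd4 (chr11:46810549-46810798, plus strand): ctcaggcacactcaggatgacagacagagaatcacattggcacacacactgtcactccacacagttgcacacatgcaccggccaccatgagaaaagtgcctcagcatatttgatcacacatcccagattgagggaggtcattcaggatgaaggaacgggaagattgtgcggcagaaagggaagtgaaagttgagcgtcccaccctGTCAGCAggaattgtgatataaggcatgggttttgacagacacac
Axl (chr7:25788734-25788983, minus strand): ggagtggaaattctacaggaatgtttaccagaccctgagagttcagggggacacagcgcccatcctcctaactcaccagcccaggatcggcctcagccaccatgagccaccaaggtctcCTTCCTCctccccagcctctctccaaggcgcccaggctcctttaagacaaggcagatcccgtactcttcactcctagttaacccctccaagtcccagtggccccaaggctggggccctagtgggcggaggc
Itgav (chr2:83724147-83724396, plus strand): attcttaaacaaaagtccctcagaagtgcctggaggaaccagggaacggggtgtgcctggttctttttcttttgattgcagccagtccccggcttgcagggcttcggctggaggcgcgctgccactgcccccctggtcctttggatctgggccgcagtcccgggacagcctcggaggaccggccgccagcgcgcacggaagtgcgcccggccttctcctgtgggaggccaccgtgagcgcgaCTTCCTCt
The RUNX letters stood 76 to 71 bases before the start of Mfge8, in 1 of 9 members, and were present in 14% of 32851 windows of the same length. The MAF letters, in 3.81% of windows, stood 45 to 39 bases before the start of Timd4. PU.1 letters, in 10.6% of windows, stood 131 to 125 bases before the start of Axl and 8 to 2 before that of Itgav, as the reverse complement CTTCCTC in both. No match overlapped another, and a match is a run of letters in the reference sequence, with no binding measured here.

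The set divided by cell type. Mertk, Axl, Gas6, Itgav and Itgb5 were higher in RM than in CD11b+ DC in both genotypes, while Timd4 and Mfge8 were lower in RM in both. Pros1 was higher in RM in the Runx3Δ samples, and Tyro3 and Itgb3 passed the test in neither genotype. In Runx3Δ cells 8 of the 10 members passed, 6 of them higher and 2 lower in RM, where 7.85% of all rows passed (3.73% higher and 4.12% lower). In WT cells 7 passed, 5 higher and 2 lower, where 6.07% of all rows passed (3.05% higher and 3.02% lower). All rows include 12146 without a gene symbol. With 1 row per gene, 2774 of 19938 passed in Runx3Δ and 2264 in WT. The median difference of the 10 members was 1.09 in Runx3Δ and 0.92 in WT, against medians of 0.02 and 0.00 over all rows. The methods' own test, a one-way analysis of variance for each row, called 7 members in each genotype after the same adjustment, where it called 2142 of 35556 rows in Runx3Δ and 1645 in WT. Samples of the cell types did not overlap for 8 members in each genotype, where 19.5% of rows were separate in Runx3Δ and 32.4% in WT.

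**Figure D1:**
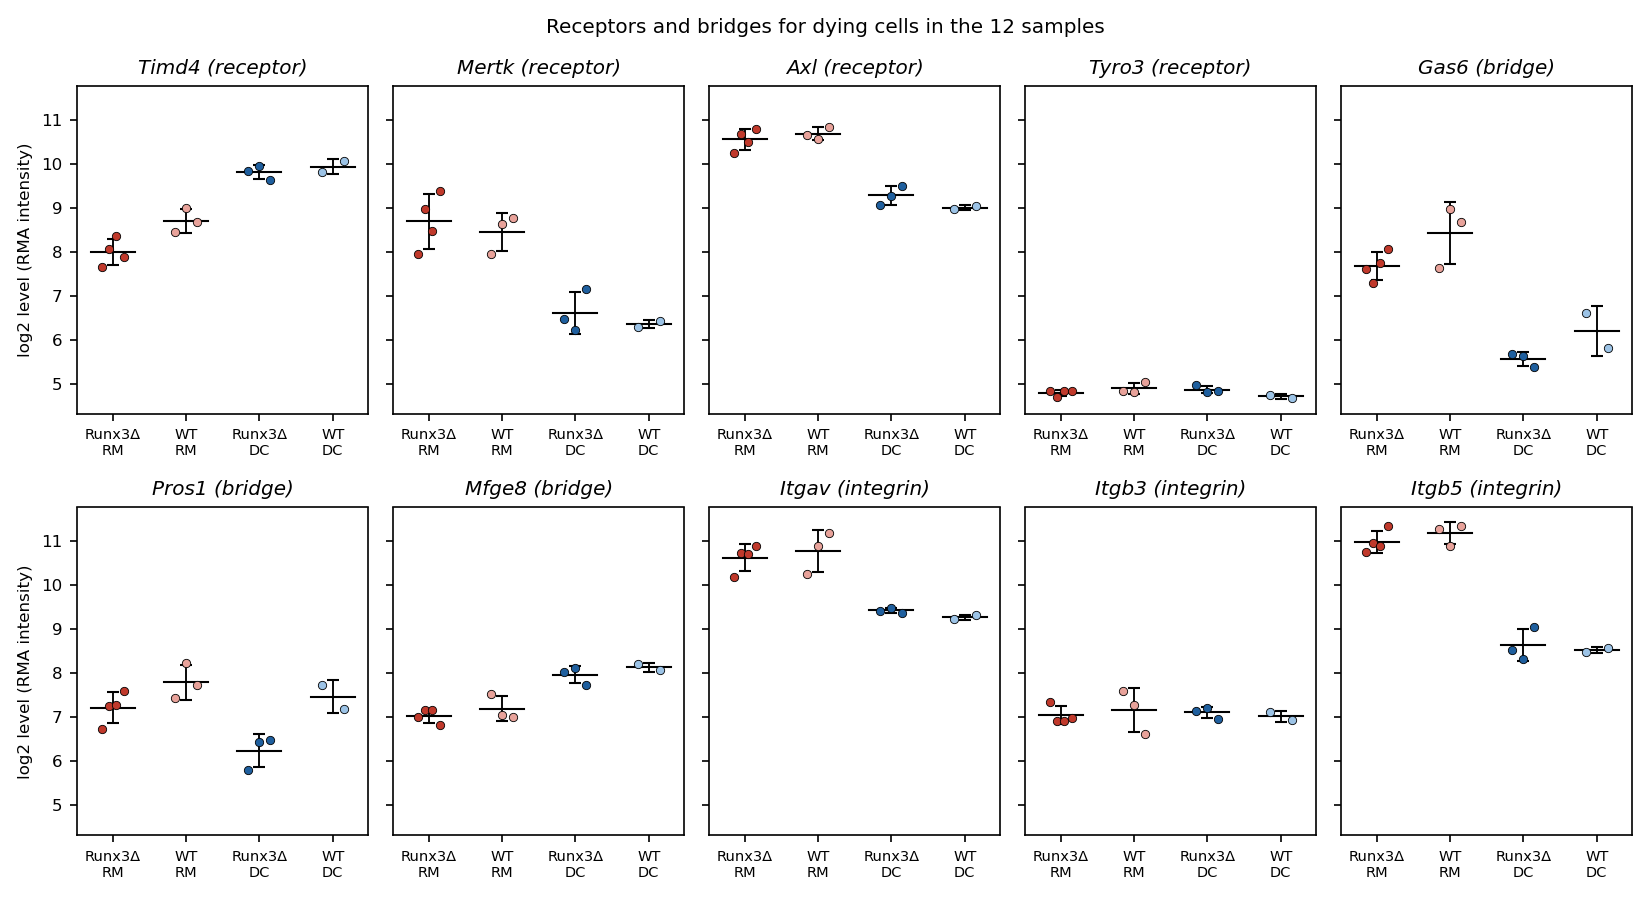
The log2 level (RMA intensity, y axis) of each of the 10 members is plotted by sample in the 4 groups, with a point for each pooled sample and lines for the group mean and SD. Mertk, Axl, Gas6, Itgav and Itgb5 sit higher in RM, Timd4 and Mfge8 sit higher in CD11b+ DC, and all Tyro3 points lie between 4.67 and 5.03.

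Among the receptors, Timd4 ran opposite to Mertk and Axl. Timd4 levels were 7.66, 8.07, 8.35 and 7.88 in Runx3Δ RM and 8.44, 8.99 and 8.67 in WT RM, against 9.84, 9.95 and 9.63 in Runx3Δ CD11b+ DC and 9.82 and 10.06 in WT CD11b+ DC. Every RM sample lay below every CD11b+ DC sample, and the Runx3Δ RM samples were the lowest of all. The difference, RM minus CD11b+ DC, was -1.82 (SE 0.17, 3.53-fold lower, adjusted p = 0.000106) in Runx3Δ and -1.24 (SE 0.21, 2.36-fold lower, adjusted p = 0.00448) in WT. From the lowest mean up, Timd4 averaged 7.99 ± 0.29 (SD, n = 4) in Runx3Δ RM, 8.70 ± 0.27 (SD, n = 3) in WT RM, 9.81 ± 0.16 (SD, n = 3) in Runx3Δ CD11b+ DC and 9.94 ± 0.17 (SD, n = 2) in WT CD11b+ DC, and the ranges of the CD11b+ DC groups overlapped.

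Mertk, a TAM kinase characteristic of macrophages that engulf apoptotic cells, had levels of 7.94, 8.98, 8.48 and 9.38 in Runx3Δ RM and 7.95, 8.63 and 8.77 in WT RM, against 6.47, 6.23 and 7.15 in Runx3Δ CD11b+ DC and 6.29 and 6.42 in WT CD11b+ DC. No RM sample overlapped a CD11b+ DC sample, and the lowest RM sample of each genotype was that of litter 1. Mertk was 4.23-fold higher in Runx3Δ RM than in Runx3Δ CD11b+ DC (2.08, SE 0.33, adjusted p = 0.00271) and 4.27-fold higher in WT RM than in WT CD11b+ DC (2.09, SE 0.40, adjusted p = 0.0093). Its spread in Runx3Δ RM (SD 0.62, n = 4) was the widest of the 4 receptors in any group, and both genotypes overlapped within each cell type.

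Axl, the TAM kinase that Gas6 engages most tightly, had levels of 10.24, 10.69, 10.50 and 10.80 in Runx3Δ RM and 10.65, 10.57 and 10.84 in WT RM, against 9.07, 9.27 and 9.50 in Runx3Δ CD11b+ DC and 8.97 and 9.04 in WT CD11b+ DC. All RM samples were above all CD11b+ DC samples. The difference was 1.27 (SE 0.14, 2.42-fold, adjusted p = 0.000315) in Runx3Δ and 1.68 (SE 0.17, 3.21-fold, adjusted p = 0.000205) in WT.

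Tyro3, the remaining TAM kinase, was dim throughout, with 11 of the 12 samples under a log2 level of 5. It had 4.83, 4.69, 4.82 and 4.83 in Runx3Δ RM and 4.83, 4.81 and 5.03 in WT RM, against 4.96, 4.80 and 4.82 in Runx3Δ CD11b+ DC and 4.74 and 4.67 in WT CD11b+ DC. Of all rows, 15242 had a mean under 5. The RM minus CD11b+ DC difference was -0.07 (95% interval -0.26 to 0.12, adjusted p = 0.773) in Runx3Δ and 0.18 (-0.04 to 0.41, adjusted p = 0.429) in WT, where the WT groups did not overlap.

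The bridging proteins went in different directions. Gas6, the ligand shared by the TAM kinases, had levels of 7.60, 7.29, 7.74 and 8.06 in Runx3Δ RM and 7.63, 8.98 and 8.67 in WT RM, against 5.67, 5.63 and 5.37 in Runx3Δ CD11b+ DC and 6.60 and 5.80 in WT CD11b+ DC. The lowest RM sample stood above the highest CD11b+ DC sample. Gas6 was 4.33-fold higher in Runx3Δ RM than in Runx3Δ CD11b+ DC (2.12, SE 0.31, adjusted p = 0.00141) and 4.68-fold higher in WT RM than in WT CD11b+ DC (2.23, SE 0.37, adjusted p = 0.00394).

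Pros1, which encodes protein S, a TAM ligand and also an anticoagulant cofactor in plasma, had levels of 6.74, 7.26, 7.27 and 7.60 in Runx3Δ RM and 7.44, 8.22 and 7.72 in WT RM, against 5.80, 6.44 and 6.48 in Runx3Δ CD11b+ DC and 7.72 and 7.19 in WT CD11b+ DC. The Runx3Δ cell types were separate, whereas the WT cell types overlapped. Its difference was 0.98 (SE 0.25, 1.97-fold, adjusted p = 0.0382) in Runx3Δ and 0.34 (95% interval -0.33 to 1.00, adjusted p = 0.693) in WT. Whether these differences differ between genotypes is given by the interaction below, which Pros1 did not pass. The Runx3Δ call did not hold without Runx3Δ CD11b+ DC replicate 1, the lowest Pros1 sample (0.76, adjusted p = 0.148), and the adjusted p ranged from 0.0029 to 0.148 over 23 alternative settings.

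Mfge8, the secreted bridge to αv integrins, had levels of 7.01, 7.15, 7.15 and 6.81 in Runx3Δ RM and 7.53, 7.05 and 7.0 in WT RM, against 8.03, 8.12 and 7.74 in Runx3Δ CD11b+ DC and 8.20 and 8.06 in WT CD11b+ DC. Here the CD11b+ DC samples were all above the RM samples, the reverse of Gas6. The difference was -0.93 (SE 0.15, 1.91-fold lower, adjusted p = 0.00265) in Runx3Δ and -0.94 (SE 0.18, 1.92-fold lower, adjusted p = 0.00913) in WT.

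The αv subunit and its β5 partner were higher in RM, and the β3 partner did not pass the test. Itgav had levels of 10.19, 10.74, 10.70 and 10.89 in Runx3Δ RM and 10.26, 10.90 and 11.19 in WT RM, against 9.42, 9.49 and 9.38 in Runx3Δ CD11b+ DC and 9.23 and 9.32 in WT CD11b+ DC. Its cell types did not overlap, and as for Mertk the lowest RM sample of each genotype was from litter 1. The difference was 1.20 (SE 0.21, 2.30-fold, adjusted p = 0.00444) in Runx3Δ and 1.51 (SE 0.25, 2.85-fold, adjusted p = 0.00414) in WT.

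Itgb5 showed the widest separation of the 10 members. It had 10.75, 10.95, 10.90 and 11.35 in Runx3Δ RM and 11.29, 10.89 and 11.36 in WT RM, against 8.54, 8.33 and 9.04 in Runx3Δ CD11b+ DC and 8.48 and 8.58 in WT CD11b+ DC. Itgb5 was 5.10-fold higher in Runx3Δ RM than in Runx3Δ CD11b+ DC (2.35, SE 0.19, adjusted p = 3.78e-05) and 6.27-fold higher in WT RM than in WT CD11b+ DC (2.65, SE 0.23, adjusted p = 7.88e-05).

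Itgb3, which pairs with αv and, in platelets, with the Itga2b product, had 7.35, 6.92, 6.92 and 6.99 in Runx3Δ RM and 7.59, 7.28 and 6.62 in WT RM, against 7.15, 7.21 and 6.96 in Runx3Δ CD11b+ DC and 7.11 and 6.93 in WT CD11b+ DC. All 4 groups overlapped. The difference was -0.06 (95% interval -0.51 to 0.38, adjusted p = 0.923) in Runx3Δ and 0.14 (-0.38 to 0.67, adjusted p = 0.871) in WT. Of 7 platelet markers, 2, Pf4 and Ppbp, were higher in RM in both genotypes, and the others did not pass. The summed intensities of all 7 were 1031 to 1392 in Runx3Δ RM and 641.1 to 1279 in WT RM. In CD11b+ DC they were 285.9 to 326.7 in Runx3Δ and 289.1 to 293.9 in WT. Pf4 averaged 9.64 in Runx3Δ RM and 9.37 in WT RM, against 5.37 in Runx3Δ and 5.54 in WT CD11b+ DC. Itga2b itself was between 5.16 and 5.60 in every sample.

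**Figure D2:**
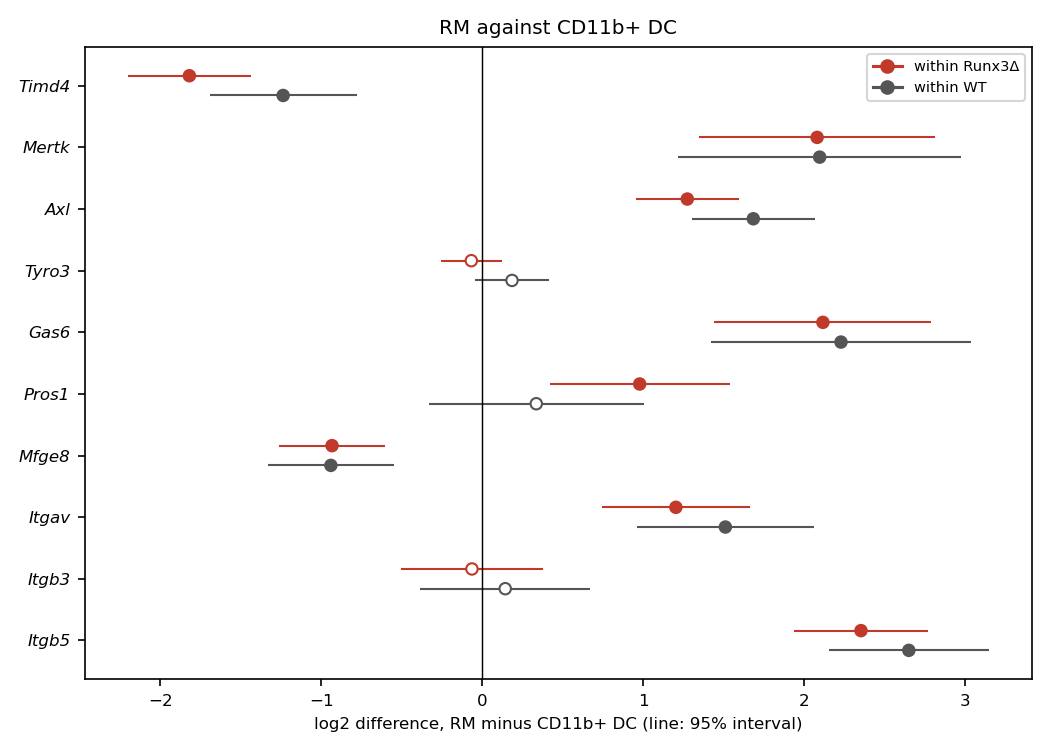
Points give the log2 difference of each member (RM minus CD11b+ DC, x axis) within Runx3Δ (upper) and within WT (lower), with lines for the 95% interval, filled where the adjusted p is under 0.05. Itgb5 lies farthest to the right (2.35 in Runx3Δ and 2.65 in WT), and Timd4 and Mfge8 lie left of 0 in both genotypes.

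The direction was also read within litters. Labels give the RM and CD11b+ DC samples a litter number, and 5 pairs shared both the number and the genotype (Runx3Δ litters 1, 3 and 4, and WT litters 2 and 3), although the labels do not say that a pair came from the same mice. RM was higher in 5 of 5 pairs for Mertk (1.47 to 2.35), Axl (1.17 to 1.80), Gas6 (1.93 to 2.87), Pros1 (0.50 to 1.12), Itgav (0.77 to 1.87) and Itgb5 (2.22 to 2.78). It was lower in 5 of 5 pairs for Timd4 (-2.18 to -0.83) and Mfge8 (-1.16 to -0.93). Tyro3 was higher in 4 of 5 pairs (-0.13 to 0.36) and Itgb3 in 3 of 5 (-0.31 to 0.20).

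Calls in the WT comparison rested on 2 CD11b+ DC samples. Without WT CD11b+ DC replicate 2, 3 members passed, and Timd4 (adjusted p = 0.0602), Mertk (0.0654), Gas6 (0.0607) and Mfge8 (0.0524) did not. Without WT CD11b+ DC replicate 1, 5 members passed, and Mertk (adjusted p = 0.0807) and Mfge8 (0.0911) did not, in each case with the remaining WT CD11b+ DC array assumed to vary like the other groups. Axl and Itgb5 passed in both genotypes in each of the 23 alternatives tried.

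Loss of Runx3 moved none of the 10 members past the adjusted threshold in either cell type. In RM 0 of 10 passed in limma, where 0.0141% of all rows did. Unadjusted, 3 members, Timd4, Gas6 and Pros1, had a p under 0.05, as did 7.96% of rows, and the methods' analysis of variance with adjusted p-values called 0. The thresholds of the methods (a 1.5-fold change with an unadjusted p of at most 0.05) were applied here to the p of the limma fit. At these thresholds 2 members, Timd4 and Gas6, were lower, where 0.731% of rows were lower and 1.46% were called in all. In CD11b+ DC 0 of 10 passed in limma, where 0% of rows did, 1 member, Pros1, had an unadjusted p under 0.05 (6.74% of rows), and the analysis of variance called 0. The methods' thresholds called Pros1 as lower in CD11b+ DC (1.5% of rows were called lower, 2.13% in all).

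The Timd4 samples of Runx3Δ and WT RM did not overlap, as for 7.55% of all rows, and Timd4 was the sole member of which this was true in RM. The difference, Runx3Δ minus WT, was -0.71 (SE 0.17, 95% interval -1.09 to -0.33, adjusted p = 0.274). Within litters 1, 2 and 3 it was -0.79, -0.92 and -0.32. The study, by its own thresholds, listed Timd4 among the anti-inflammatory genes with lower expression in Runx3Δ RM. In CD11b+ DC the Timd4 difference was -0.13 (95% interval -0.59 to 0.33, adjusted p = 0.963), with overlapping groups.

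Gas6 averaged 7.67 ± 0.32 (SD, n = 4) in Runx3Δ RM and 8.42 ± 0.71 (SD, n = 3) in WT RM, a difference of -0.75 (SE 0.31, 95% interval -1.43 to -0.08, adjusted p = 0.572). The groups overlapped through WT RM replicate 1 (7.63), and the differences within litters 1, 2 and 3 were -0.02, -1.69 and -0.92. Without WT RM replicate 1 the Gas6 difference was -1.15, and without WT RM replicate 2 it was -0.47. In CD11b+ DC, Gas6 averaged 5.56 ± 0.16 (SD, n = 3) in Runx3Δ and 6.20 ± 0.56 (SD, n = 2) in WT, a difference of -0.64 (SE 0.37, adjusted p = 0.792). Within litter 3 it was -0.17, and it was -0.24 without WT CD11b+ DC replicate 1 and -1.04 without WT CD11b+ DC replicate 2.

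Pros1 had the largest genotype difference among the members in CD11b+ DC. It averaged 6.24 ± 0.38 (SD, n = 3) in Runx3Δ and 7.46 ± 0.38 (SD, n = 2) in WT CD11b+ DC, a difference of -1.22 (SE 0.30, 95% interval -1.89 to -0.55, adjusted p = 0.39). The groups did not overlap, and the difference within litter 3 was -0.76. In RM, Pros1 averaged 7.22 ± 0.36 (SD, n = 4) in Runx3Δ and 7.79 ± 0.40 (SD, n = 3) in WT, a difference of -0.58 (SE 0.25, 95% interval -1.14 to -0.02, adjusted p = 0.613), and it was -0.70, -0.96 and -0.45 within litters 1, 2 and 3 and -0.36 without WT RM replicate 2.

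The other members lay closer to 0 in RM than Timd4, Gas6 and Pros1. Their differences in RM were 0.24 for Mertk, -0.13 for Axl, -0.10 for Tyro3, -0.16 for Mfge8, -0.15 for Itgav, -0.12 for Itgb3 and -0.19 for Itgb5, with adjusted p-values from 0.823 to 0.908. The widest of their 95% intervals was that of Mertk (-0.49 to 0.98), and a near doubling lay within it. In CD11b+ DC the same members differed by 0.26 (Mertk), 0.28 (Axl), 0.16 (Tyro3), -0.17 (Mfge8), 0.15 (Itgav), 0.09 (Itgb3) and 0.11 (Itgb5), with adjusted p-values from 0.818 to 0.978. Groups did not overlap in CD11b+ DC for 5 members, with Axl, Tyro3 and Itgav higher and Gas6 and Pros1 lower in Runx3Δ, and this was so for 25.7% of all rows. The median of the 10 members was -0.16 in RM and 0.10 in CD11b+ DC, against 0.03 and 0.01 over all rows.

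**Figure D3:**
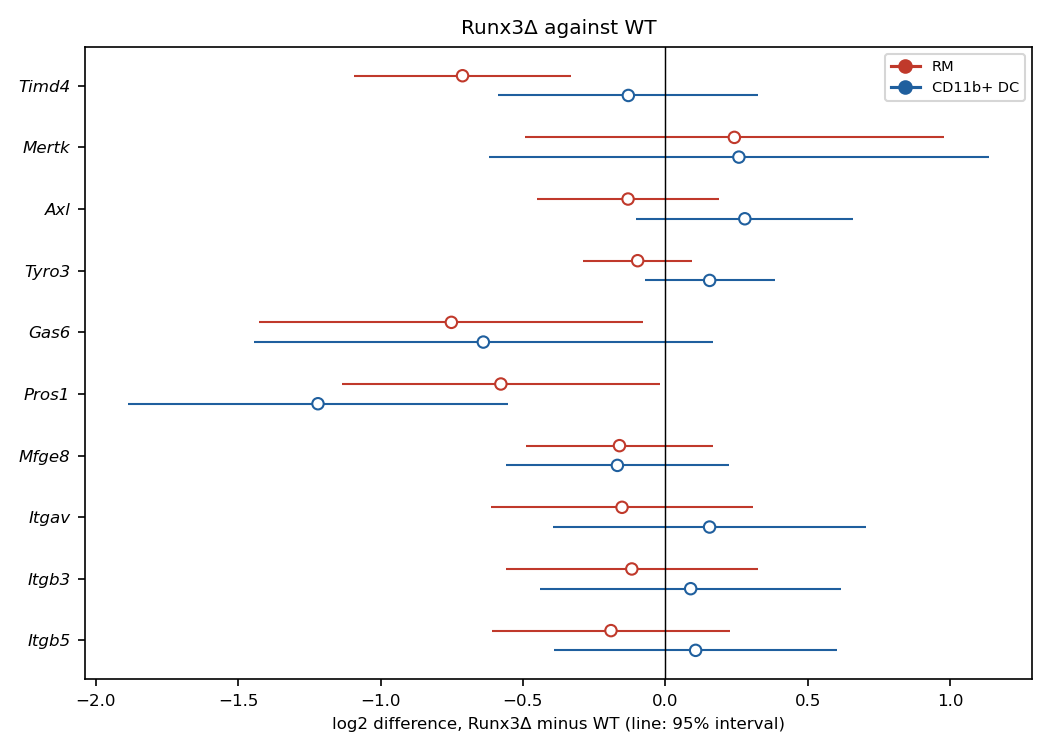
Points give the log2 difference of each member (Runx3Δ minus WT, x axis) in RM (upper) and in CD11b+ DC (lower), with lines for the 95% interval. All points are open because none reached an adjusted p under 0.05; the intervals of Timd4, Gas6 and Pros1 in RM and of Pros1 in CD11b+ DC lie below 0.

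The genotype difference was compared between the cell types as an interaction, the difference in RM minus that in CD11b+ DC. It was -0.58 for Timd4 (SE 0.27, 95% interval -1.18 to 0.01), -0.41 for Axl (-0.91 to 0.09), -0.25 for Tyro3 (-0.55 to 0.05) and 0.64 for Pros1 (SE 0.40, -0.23 to 1.51). No member passed in limma (0 of 10, where 0% of rows did) or in the methods' analysis of variance, and 0 had an unadjusted p under 0.05, where 3.91% of rows did. The comparisons share samples: the WT RM arrays, for example, enter both the genotype difference of RM and the cell-type difference of WT.

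Of 16 stromal markers, 1 had a genotype difference above 0 in each cell type, and the others ran below it as Gas6 and Pros1 did. The mean log2 level of these markers was 6.34, 6.03, 6.40 and 6.27 in Runx3Δ RM and 6.89, 6.86 and 6.34 in WT RM, and 5.98, 5.68 and 5.89 in Runx3Δ CD11b+ DC and 6.66 and 6.08 in WT CD11b+ DC. Their summed intensity ranged from 1390 to 1978 in Runx3Δ RM and 1756 to 2884 in WT RM, and from 1077 to 1324 in Runx3Δ and 1442 to 2542 in WT CD11b+ DC. The median difference was -0.26 in RM, where 1 of 16, Fap (fibroblast activation protein), passed (-1.03, adjusted p = 0.0079), and -0.44 in CD11b+ DC, where 0 passed. Only Lum, of the 16, was under a level of 5 in every sample. Between cell types, 2 of the 16 were higher in RM in each genotype, with medians of 0.31 in Runx3Δ and 0.19 in WT. Resident macrophage markers also leaned one way in RM, with 1 of 14 above 0 and a median genotype difference of -0.13, and with 6 of 14 above 0 and a median of -0.08 in CD11b+ DC; 0 of 14 passed in either. Their summed intensity ranged from 35740 to 44080 in Runx3Δ RM and 37860 to 46500 in WT RM, and from 11770 to 15970 in Runx3Δ and 13580 to 14640 in WT CD11b+ DC. Other lists leaned too. In CD11b+ DC the median genotype difference was -0.35 for endothelial markers (4 of 12 above 0) and -0.21 for conventional DC markers (4 of 14). It was 0.39 for T and NK markers (8 of 10). In RM the medians of these lists were 0.03, -0.08 and 0.28. Epithelial markers had medians of 0.28 in CD11b+ DC (10 of 12 above 0) and 0.19 in RM (9 of 12). Monocyte markers had 0.06 in CD11b+ DC and 0.21 in RM (4 of 6 above 0 in each). Mast cell markers had -0.10 in CD11b+ DC (3 of 8) and 0.19 in RM (5 of 8). The part of any of these lists in the results on Timd4, Gas6 and Pros1 was not tested.

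**Figure D4:**
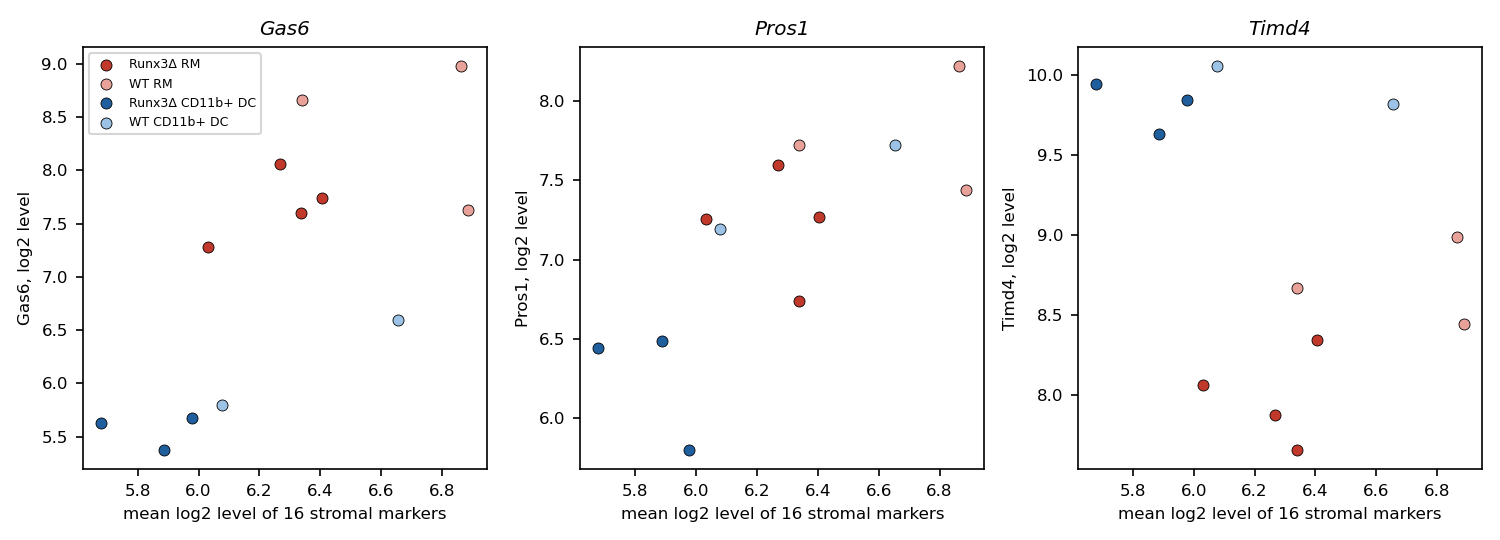
The log2 level of Gas6, Pros1 and Timd4 (y axes) is plotted against the mean log2 level of 16 stromal markers (x axis), with a point for each of the 12 samples coloured by group. The 3 Runx3Δ CD11b+ DC samples have the lowest stromal levels (5.68 to 5.98) and the lowest Gas6 levels (5.37 to 5.67). Within WT RM the order is mixed. Replicate 1 has the highest stromal level (6.89) with the lowest Gas6 (7.63) and Pros1 (7.44) of that group. Replicate 2, with a stromal level of 6.86, has the highest Gas6 (8.98) and Pros1 (8.22), and replicate 3 has 6.34 with Gas6 at 8.67.

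The wider uptake pathway was read from 9 lists with 133 genes, of which 126 had a row of their own. In Runx3Δ cells 50 of the 126 differed between cell types (39.7%, against 7.85% of all rows), 42 higher and 8 lower in RM, and in WT cells 39 did (31%, against 6.07% of all rows), 32 higher and 7 lower. The share is larger among named genes: with 1 row per gene, 2774 of 19938 passed in Runx3Δ and 2264 in WT. Between genotypes 0 of the 126 passed in limma in either cell type, with 21 in RM and 20 in CD11b+ DC at an unadjusted p under 0.05 (7.96% and 6.74% of all rows) and 0 by the methods' analysis of variance, which called 0 of all rows.

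Receptors for find-me signals, by which dying cells attract phagocytes, had the highest list median. Of 9 measured, 7 were higher and 1 lower in RM in each genotype, with median differences of 1.47 in Runx3Δ and 1.69 in WT. Cx3cr1, the fractalkine receptor, was higher by 2.38 in Runx3Δ and 2.74 in WT (adjusted p = 3.59e-05 and 6.45e-05), and P2ry12, a nucleotide receptor, by 1.63 and 2.42. P2ry6, a receptor for UDP, was higher by 1.92 in Runx3Δ and 1.69 in WT. Gpr132, a receptor linked to lysophosphatidylcholine sensing, was the exception, at -0.58 in Runx3Δ and -0.67 in WT.

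Other bridges and opsonins were also higher in RM, 8 of 16 in Runx3Δ and 6 of 16 in WT, with none lower. Apoe, an apolipoprotein that also binds dying cells, was higher by 1.57 in Runx3Δ and 1.54 in WT. Among complement genes, the C1q chain genes C1qa (1.96 and 2.10) and C1qc (2.20 and 2.40) were higher in both. Of the 3 bridging members and these 16 genes, Mfge8 was the one that passed the test as lower in RM. In WT, Fn1 (-1.55, adjusted p = 0.216) and Anxa1 (-0.94, adjusted p = 0.171) were also below 0 without passing. In Runx3Δ these genes differed by 0.21 (Fn1) and -0.36 (Anxa1). C1qa, C1qb and C1qc, and Cx3cr1 of the find-me receptors, are also among the 14 resident macrophage markers.

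Of 18 other uptake receptors, 5 were higher and 1 lower in RM in Runx3Δ, and 3 were higher and 0 lower in WT. Stab1 (stabilin-1, which binds phosphatidylserine) was higher by 2.36 in Runx3Δ and 2.80 in WT, and Cd14 by 1.30 and 0.99. Lrp1, a receptor for several opsonins, was higher in Runx3Δ (1.39, adjusted p = 0.00138) and had a difference of 0.29 in WT (adjusted p = 0.651). Its interaction was 1.10 (SE 0.31) and did not pass (adjusted p = 0.9996). Havcr1, which encodes Tim-1, a relative of Tim-4, was lower in RM in Runx3Δ (-0.91, adjusted p = 0.0189), with -0.83 in WT (adjusted p = 0.0778).

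Genes for digesting the corpse and handling its sterol came next, with 12 of 19 higher in RM in Runx3Δ and 11 higher and 1 lower in WT, and medians of 0.64 and 0.76. Ctsl (cathepsin L) was higher by 2.06 in Runx3Δ and 2.18 in WT, Abca1 (a cholesterol exporter) by 2.25 and 2.06, and Lamp1 (a lysosomal membrane protein) by 0.80 and 0.97. Abca7 was lower in WT (-0.66, adjusted p = 0.0166).

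The remaining lists had fewer calls. Of 17 engulfment signaling genes, 1 was higher (Dock1, 0.87) and 1 lower (Elmo1, -0.48) in RM in Runx3Δ, and 1, Vav3, was lower in WT (-0.83). For LC3-associated phagocytosis, 1 of 16 was higher and 2 were lower in Runx3Δ, and 2 were higher in WT, with Cybb, the NADPH oxidase subunit, higher in both (0.70 and 0.64). Of 8 other integrin subunits, 1, Itgam, which encodes the CD11b used in the sort, passed in Runx3Δ (0.61) and 0 passed in WT. Among 11 genes of TAM feedback and shedding, 4 were higher and 1 lower in Runx3Δ and 2 were higher and 1 lower in WT: Adam17, a protease that sheds Mertk, was higher by 0.57 in Runx3Δ and 0.90 in WT, and Ifnar2, a chain of the type I interferon receptor that TAM kinases engage, by 0.59 and 0.81. Of 12 genes for eat-me and do-not-eat-me signals, 3 were higher and 2 lower in Runx3Δ, and 1 was higher and 3 were lower in WT. Sirpa, the CD47 receptor, was higher in RM in both (0.62 and 0.71), and Siglecg, a receptor for CD24, was lower in both (-2.04 and -2.48).

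**Figure D5:**
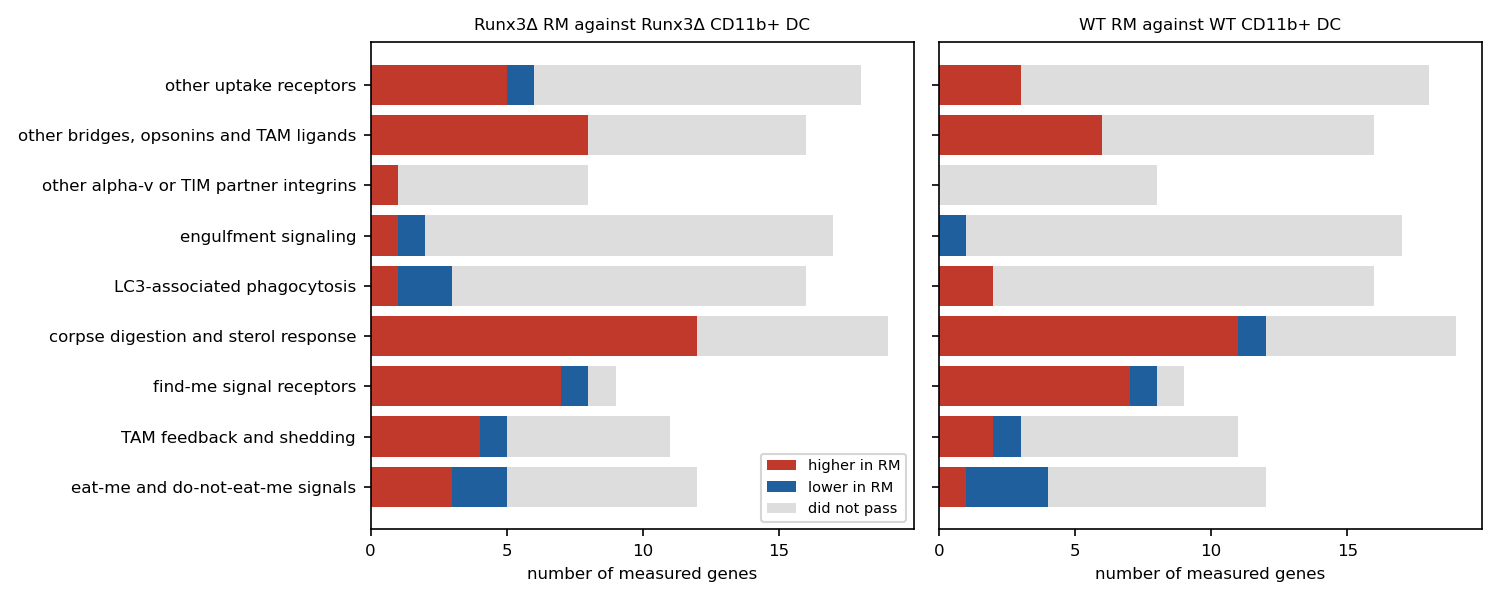
Bars count the measured genes of each of the 9 lists (x axis) that were higher in RM, lower in RM or did not pass an adjusted p of 0.05, in Runx3Δ cells (left) and in WT cells (right). Find-me receptors had 7 of 9 higher in both panels, whereas engulfment signaling had 1 of 17 higher in Runx3Δ and 0 in WT.

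Likeness of pattern was measured by Pearson's correlation over the 12 samples against 17265 other genes, as a description of samples that span both cell types. Itgb5 was most like C1qa (0.993), Dok3 (0.993) and Msr1 (0.992), and Axl was most like Blvrb, Neu1 and Unc93b1 (0.994 each). Mertk was nearest to Ralgds (0.989), Atp6v1b2 (0.982) and Gdpd1 (0.981), Itgav to P2ry13 (0.991), Lgals8 (0.988) and Plagl2 (0.987), and Gas6 to Soga1 (0.992), Slco2b1 (0.987) and Wdr81 (0.987). For the members that were higher in CD11b+ DC, Timd4 was nearest to Mbtd1 (0.986), Tbc1d4 (0.985) and Bbs9 (0.977), and Mfge8 to Mthfd2 (0.986), Map3k1 (0.980) and Ptpn4 (0.979). Pros1 was nearest to Lifr (0.983), Map2k3 (0.964) and Tnf (0.962). Itgb3 was nearest to Snhg5 (0.857), Psip1 (0.850) and Serpinc1 (0.845), and the dim Tyro3 was nearest to Hs3st3a1 (0.951), Zfp248 (0.940) and Aqp7 (0.911). Among the members themselves, Axl and Itgb5 (0.986), Mertk and Axl (0.962) and Axl and Itgav (0.956) ran closest together, Timd4 ran with Mfge8 (0.895), and Mertk ran opposite to Mfge8 (-0.960).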

How the data were processed

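RNA of sorted cells was hybridised to Affymetrix mouse arrays. The authors deposited log2 values made by RMA with a GC correction in Partek (build mm9 per the labels), which were used as deposited. The methods name an exon array and the platform annotation is that of a gene-level array. Of 35556 rows, 21789 carry 1 gene symbol (21698 found in the RefSeq table), 1621 carry several and 12146 none. Where a gene had several rows, its brightest row on average stood for it.

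The 4 groups, taken from the labels, were fitted together with limma 3.58.1 (lmFit, eBayes) in R 4.3.3, with statmod 1.5.0 for random blocks, and Benjamini-Hochberg adjustment covered the whole table. Intervals are 95% intervals of the moderated fit. The methods' thresholds (fold change of at least 1.5 and p of at most 0.05), applied to the limma p, and their one-way analysis of variance were run beside it. Plots used matplotlib 3.10.9 in Python 3.11.15.

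The members, the 9 pathway lists, the 11 marker lists and the tests were chosen with earlier results of these data known. Named genes were the 10 members, the 3 genes most like each member, and up to 3 genes per list with the smallest adjusted p, besides the few that a count of 5 or fewer singled out. The marker lists were resident macrophage, conventional DC, monocyte, peritoneal and serosal macrophage, stroma, endothelium, epithelium, platelet and megakaryocyte, T and NK cell, B and plasma cell, and mast cell. Between genotypes these lists had 0 genes past the threshold except Fap among the stromal markers. In Runx3Δ and WT, between cell types, monocyte markers had 3 and 1 of 6 called, peritoneal and serosal markers 2 and 0 of 9, endothelial markers 2 and 0 of 12, epithelial markers 2 and 3 of 12, T and NK markers 1 and 1 of 10 (Cd4), and mast cell markers 0 and 0 of 8.

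Litter numbers in the labels mark samples of the same litter, so they were used as a replicate block in an alternative. After removal of group means, samples of different groups correlated at a median of 0.0958 when they shared a number (13 pairs, -0.0412 to 0.358) and of -0.0347 when they did not (40 pairs, -0.257 to 0.203). The other alternatives were a random block, a block by pool, the compared groups alone, an intensity trend with a robust prior, quantile normalization, median centring, a filter at a mean level of 5, 1 row per gene, a table without its 6617 leading unnamed rows, and each sample left out in turn. Simulated data of 35556 rows were used to test the fit: 84.5% of 200 rows with a log2 change of 1 were called between genotypes in RM, 73% in CD11b+ DC, 90% between cell types in Runx3Δ and 73% in WT. The simulated noise was independent between rows, and each comparison held another 200 rows with a log2 change of 2, which eases the adjusted threshold. The cell-type comparison in Runx3Δ held further changed rows, with 34356 rows unchanged against 35156 in WT, which eases its threshold more. The deposited data had 5 rows called between genotypes in RM and 0 in CD11b+ DC. The simulated rates therefore do not give the share of real changes that would be called here. Promoter windows are RefSeq sequences of GRCm38.p6. Of the study's other assays (chromatin, cytometry, PCR), none was analysed here.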

Additional observations from a re-analysis of the deposited data

Results flagged for a closer look

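Single samples that stood apart within their group were looked for in the Runx3Δ RM group, the only one with 4 samples, over the 10 members and the stromal marker mean. In 2 of these 11 tests the gap to the nearest sample, divided by the range of the group, exceeded Dixon's 95% critical value, and chance gives about 1 in 20. Tyro3 was low in Runx3Δ RM replicate 2 (4.688, against 4.819 in the nearest sample, ratio 0.904), at a level where the row is dim in nearly every sample. Itgb3 was high in Runx3Δ RM replicate 1 (7.349, against 6.987 in the nearest sample, ratio 0.844). Neither gene passed a test between any groups.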

How the results depend on the processing

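Of 1105 values of members under alternative settings, 1056 kept their direction and their side of the threshold, 18 fell short of it and 31, all of them uncalled, changed sign. The members called were 0 between genotypes in each cell type and 0 for the interaction under every adjusted alternative, and 2 in RM and 1 in CD11b+ DC at the methods' thresholds. With only the compared groups in the fit, 4 members passed in WT between cell types, as Gas6 (adjusted p = 0.0804), Mfge8 (0.0812) and Itgav (0.0627) did not, and with samples left out in turn 3 to 7 passed in WT and 7 to 8 in Runx3Δ. Pros1 in Runx3Δ, RM against CD11b+ DC, kept its call in 14 of 23 alternatives and lost it with the analysis of variance (adjusted p = 0.0988), with median centring (0.0586) and without any 1 of 7 samples (WT RM replicate 3, Runx3Δ RM replicate 2, 3 or 4, Runx3Δ CD11b+ DC replicate 1, 2 or 3), its difference running from 0.756 to 1.14 over the omissions. The cause was not tested.

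With the litter number as a fixed replicate block, Timd4 differed by -0.66 between genotypes in RM (adjusted p = 0.205), Gas6 by -0.77 (0.537) and Pros1 by -0.67 (0.182), and Pros1 by -1.03 in CD11b+ DC (0.509). The blocks changed no member's call. They turned the sign of Timd4 (0.098) and Itgb5 (-0.13) between genotypes in CD11b+ DC, and the block by pool that of Itgb3 between WT cell types (-0.0734).

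Other signs turned near 0. In the interaction, quantile normalization gave 0.0196 for Mertk and -0.000541 for Mfge8, and median centring gave -0.0317 for Mfge8. Over the omission of each sample, the genotype difference in RM ran from -0.0063 to 0.49 for Mertk, -0.257 to 0.0069 for Mfge8, -0.414 to 0.0493 for Itgav and -0.391 to 0.098 for Itgb3, and in CD11b+ DC from -0.00985 to 0.452 for Mertk, -0.00237 to 0.179 for Itgb3 and -0.0966 to 0.258 for Itgb5. The interaction ran from -0.264 to 0.252 for Mertk, -0.511 to 0.287 for Gas6, -0.104 to 0.176 for Mfge8 and -0.479 to 0.00948 for Itgb3, and the WT cell-type difference from -0.0734 to 0.416 for Itgb3. Called differences in WT ran from 1.83 to 2.63 for Gas6, 1.93 to 2.34 for Mertk, -1.11 to -0.845 for Mfge8 and -1.38 to -1.11 for Timd4. Tyro3 gave no value under the filter on dim rows, and other rows of a member could not be tried because each has 1 row. With 2 arrays in WT CD11b+ DC and 3 to 4 pooled samples elsewhere, a real change could go uncalled. This held also where a 95% interval excluded 0, because the adjusted test is stricter than the interval. Examples between genotypes were Timd4 in RM (-0.71, adjusted p = 0.274) and Pros1 in CD11b+ DC (-1.22, adjusted p = 0.39).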
